A study of Mus musculus with 18 samples.

Results

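The genes of Nodal signalling that are described here are 9 of the 53801 genes in a count table from mouse embryonic stem cells (ESCs). They were named from a list of ligands, a co-receptor, receptors and inhibitors: *Nodal*, *Gdf3*, *Tdgf1*, *Acvr1b*, *Acvr2b*, *Lefty1*, *Lefty2*, *Cer1* and *Smad7*. *Lefty1* was put on the list because its difference between the lines changed over time, so its values are given as a description, with no test, and it is left out of every count of genes called. The other 8 were chosen by name, with earlier results of the same table known.

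RNA-seq was performed on wild-type (WT) E14 ESCs and on iEZR_CA cells at 3 stages, with 3 libraries in each of the 6 groups. ESCs were kept naive in 2i+LIF, which holds a MEK inhibitor (PD0325901), a GSK3 inhibitor (CHIRON) and leukemia inhibitory factor, and this stage is 0 h. Exit from naive pluripotency was then allowed in N2B27 alone for 24 h (T24) or 48 h (T48). iEZR_CA is an E14 line with a PiggyBac-delivered, doxycycline-inducible, phosphomimetic form of ezrin followed by IRES mCherry. Ezrin is a linker between the plasma membrane and the actin cortex. Doxycycline was given to the iEZR_CA cells overnight before exit, and none is described for WT, so the transgene and the drug cannot be told apart. Whether iEZR_CA is 1 clone is not given in the sources used here. The study asked whether keeping membrane tension high alters exit from naive pluripotency.

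In Nodal signalling, the secreted ligands NODAL and GDF3 bind a complex of type I and type II activin receptors, here ALK4 (*Acvr1b*) and ACVR2B, with Cripto (*Tdgf1*) as co-receptor. The receptors phosphorylate SMAD2 and SMAD3, which enter the nucleus with SMAD4 and act with cofactors such as FOXH1. *Lefty1* and *Lefty2* encode secreted inhibitors that are themselves targets of the pathway, CER1 binds the ligand outside the cell, and SMAD7 blocks the receptors from inside. The pathway is known for patterning the mouse embryo around implantation, and it is active in ESC cultures.

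All 18 libraries held between 10940752 and 33276622 reads in genes (median 23096248). *Ezr*, counted without telling the transgene from the endogenous gene, was higher in iEZR_CA at each stage (log2 fold change of 1.07 in ESCs, 1.43 at T24 and 0.69 at T48), with no overlap between libraries. The 5 ES cell markers checked (*Pou5f1*, *Sox2*, *Nanog*, *Zfp42* and *Esrrb*) were all above 3 counts in every group. Of the 9 genes, 8 passed the filter on low counts and were fitted with edgeR's quasi-likelihood test over 18469 genes, and every adjusted p below is from that fit, with a threshold of 0.05. Levels are normalised counts, the raw counts divided by each library's size factor. Because these are bulk libraries, fewer cells that express a gene and less RNA per cell cannot be told apart.

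The promoters of the ligand, the co-receptor and the receptor pair are shown first. Over the first day of exit *Acvr2b* rose in both lines, while *Nodal*, *Tdgf1* and *Acvr1b* fell. Each is 300 bases, from 250 before the RefSeq start to 50 after it (GRCm38.p6), 5′ to 3′ on the strand of the gene. Capitals mark a SMAD motif (CAGAC, or GTCTG on the other strand), and a FOXH1 motif (AATNCACA, or TGTGNATT on the other strand) was also searched.
Nodal, chr10:61417722-61418021, plus strand: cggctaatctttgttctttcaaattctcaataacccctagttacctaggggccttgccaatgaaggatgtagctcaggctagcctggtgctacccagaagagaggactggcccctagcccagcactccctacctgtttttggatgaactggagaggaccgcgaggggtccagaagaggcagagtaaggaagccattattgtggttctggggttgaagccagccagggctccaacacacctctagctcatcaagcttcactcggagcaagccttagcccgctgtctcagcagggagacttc
Tdgf1, chr9:110946109-110946408, minus strand: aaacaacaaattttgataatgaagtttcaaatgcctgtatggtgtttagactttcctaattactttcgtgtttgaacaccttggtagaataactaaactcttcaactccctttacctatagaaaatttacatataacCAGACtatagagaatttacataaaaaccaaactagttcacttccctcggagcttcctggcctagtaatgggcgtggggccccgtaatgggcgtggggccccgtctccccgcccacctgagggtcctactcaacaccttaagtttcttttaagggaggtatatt
Acvr1b, chr15:101173822-101174121, plus strand: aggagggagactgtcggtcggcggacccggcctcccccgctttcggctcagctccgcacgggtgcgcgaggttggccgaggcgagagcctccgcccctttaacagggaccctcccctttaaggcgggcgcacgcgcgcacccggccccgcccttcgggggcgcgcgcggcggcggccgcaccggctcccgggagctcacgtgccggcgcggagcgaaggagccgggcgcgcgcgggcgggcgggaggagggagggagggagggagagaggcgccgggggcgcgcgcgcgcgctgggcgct
Acvr2b, chr9:119401928-119402227, plus strand: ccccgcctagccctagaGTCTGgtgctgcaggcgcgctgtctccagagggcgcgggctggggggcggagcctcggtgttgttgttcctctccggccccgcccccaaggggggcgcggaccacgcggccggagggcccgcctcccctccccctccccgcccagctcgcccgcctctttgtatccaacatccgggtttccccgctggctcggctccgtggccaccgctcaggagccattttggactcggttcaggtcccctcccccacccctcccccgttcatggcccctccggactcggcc

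The *Tdgf1* promoter held 1 SMAD motif, beginning at -113 from the start, and the *Acvr2b* promoter held 1, at -233 and on the opposite strand. The *Nodal* and *Acvr1b* promoters held none in this window. The FOXH1 motif was in none of the 4. Of 32851 promoters of the same length, 49.6% held the SMAD letters and 3.6% the FOXH1 letters on either strand, so neither count sets these genes apart. The receptor promoters were rich in G and C (79.7% with 51 CG pairs for *Acvr1b*, 73.3% with 27 for *Acvr2b*), against 54% with 5 pairs for *Nodal* and 41.7% with 7 for *Tdgf1*. RefSeq's table held the promoters of 5 of the 9 genes, the fifth being *Cer1*.

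*Nodal*, the ligand, fell in both lines on exit, and it fell further in WT. The gene lies on chromosome 10 (GRCm38, 61417972 to 61425338, plus strand). In WT it was at 2218, 2370 and 2379 normalised counts in ESCs, 1367, 1426 and 1431 at T24, and 456, 463 and 446 at T48. In iEZR_CA it was at 1724, 1774 and 1775 in ESCs, 1464, 1484 and 1522 at T24, and 1040, 1096 and 1122 at T48. The 6 groups did not overlap. WT was the higher line in ESCs and iEZR_CA the higher one at T48, while at T24 the highest WT library was just under the lowest of iEZR_CA. The fitted line difference was -0.41 in ESCs (log2, SE 0.0375, adjusted p = 3.2e-15), 0.09 at T24 (SE 0.0402, adjusted p = 0.052) and 1.26 at T48 (SE 0.0494, adjusted p = 2.2e-33). At T48 this is 2.4-fold. The T24 difference passed the threshold when any 1 of 9 libraries was left out, all 3 of WT ESC, all 3 of WT T48, replicate 2 of iEZR_CA ESC and replicates 1 and 2 of iEZR_CA T48 (log2 difference over all 18 omissions from 0.07 to 0.10, adjusted p from 0.028 to 0.048 in the 9 that passed). It also passed with only the groups compared in the fit (adjusted p = 0.045) and with at least 10 counts in every library (0.035). On the first day of exit *Nodal* fell by 0.74 on the log2 scale in WT and by 0.24 in iEZR_CA, and over the second day by 1.63 and by 0.46. Scaling to the spike-in RNA left the first-day value in iEZR_CA at -0.09 (adjusted p = 0.63).

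*Gdf3*, the second ligand, which is itself bound by Cripto, was nearly level in iEZR_CA and fell in WT. It lies on chromosome 6 (122605403 to 122610087, minus strand). WT libraries were at 2770, 2858 and 2882 normalised counts in ESCs, 2546, 2473 and 2539 at T24, and 1931, 2074 and 1990 at T48. iEZR_CA libraries were at 2707, 2830 and 2828, then 2657, 2647 and 2724, then 2503, 2826 and 2673. The WT T48 libraries were the lowest of all, apart from every other group, and each other neighbouring pair in the order of group means overlapped. The line difference was -0.03 in ESCs (log2, adjusted p = 0.44), 0.09 at T24 (adjusted p = 0.025) and 0.43 at T48 (SE 0.0357, adjusted p = 4.6e-17). The T24 call was lost without replicate 3 of iEZR_CA T24 (0.07, adjusted p = 0.095) or replicate 2 of WT T24 (0.07, adjusted p = 0.11) and under DESeq2 (adjusted p = 0.078), no filter on low counts (0.069) and spike-in scaling (0.34). In WT the gene fell by 0.18 over the first day and by 0.34 over the second. Neither fall was called with spike-in scaling (-0.05, adjusted p = 0.79, and -0.21, adjusted p = 0.16). In iEZR_CA the 2 steps were -0.06 (adjusted p = 0.12) and -0.0022 (adjusted p = 0.96), and their sign turned with spike-in scaling (0.09 and 0.12).

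*Tdgf1* encodes Cripto, the co-receptor that NODAL needs for its receptors, and it was the most abundant of the 9 genes per kilobase of exon in WT ESCs (2928 ± 93, SD, n = 3). The larger of its falls came on the first day of exit in iEZR_CA and on the second in WT. WT libraries were at 7421, 7699 and 7908 normalised counts in ESCs, 6682, 6417 and 6114 at T24, and 2263, 1698 and 1615 at T48. iEZR_CA libraries were at 6327, 6317 and 6598 in ESCs, 2826, 2735 and 2877 at T24, and 2045, 1933 and 1960 at T48. At T24 the lines were far apart, with iEZR_CA 2.28-fold lower. In ESCs WT was the higher line by a smaller margin, and at T48 the lines overlapped because replicate 1 of WT stood above the rest. In the order of group means, iEZR_CA ESC and WT T24 also overlapped. The line difference was -0.27 in ESCs (log2, SE 0.0837, adjusted p = 0.016), -1.19 at T24 (SE 0.089, adjusted p = 4.7e-08) and 0.08 at T48 (SE 0.0992, adjusted p = 0.52). At T48 the value was 0.26 without WT replicate 1 (adjusted p = 1.1e-07) and -0.04 without WT replicate 3 (adjusted p = 0.72). In its steps over time *Tdgf1* fell by 0.27 in WT and by 1.19 in iEZR_CA on the first day, and on the second by 1.77 and by 0.50. The ESC difference and the first-day fall in WT were not called with no filter on low counts (adjusted p = 0.059 and 0.052) or with spike-in scaling (-0.21, adjusted p = 0.22, and -0.14, adjusted p = 0.39).

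A processed copy of this gene, *Tdgf1-ps1* on chromosome 16, shares 236 of the 1883 stretches of 50 bases in the longest *Tdgf1* transcript, and HTSeq by default does not count reads aligned to both places. The copy had 26872 reads over the 18 libraries, and it took between 22.3% and 25.3% of the counts of the pair in every library. It was named after its counts were seen. Its line differences were -0.21 in ESCs, -1.18 at T24 and 0.13 at T48 (log2, adjusted p = 0.048, 8.1e-08 and 0.37), next to -0.27, -1.19 and 0.08 for *Tdgf1* itself. How these counts divide between the loci is therefore uncertain, while the sum of the pair gave a log2 ratio of the line means of -1.19 at T24.

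The type I receptor *Acvr1b* (ALK4) and the type II receptor *Acvr2b* moved in opposite directions on exit. *Acvr1b* (chromosome 15, 101174067 to 101213684, plus strand) was at 1569, 1482 and 1464 normalised counts in WT ESCs, 638, 667 and 705 at T24, and 630, 608 and 649 at T48. The iEZR_CA libraries were at 1652, 1593 and 1610, then 1267, 1241 and 1236, then 790, 771 and 793. iEZR_CA was above WT in every library of each stage, by the widest margin at T24. The line difference was 0.10 in ESCs (log2, SE 0.0398, adjusted p = 0.029), 0.91 at T24 (SE 0.0459, adjusted p = 1.7e-27) and 0.31 at T48 (SE 0.0491, adjusted p = 7.8e-08). The ESC call was lost without replicate 1 of iEZR_CA ESC (0.09), replicate 2 of WT ESC (0.09) or replicate 3 of WT ESC (0.08), with adjusted p between 0.10 and 0.11, and under DESeq2 (0.072), no filter on low counts (0.23) and spike-in scaling (0.41). The gene fell by 1.19 in WT and by 0.38 in iEZR_CA on the first day. Over the second day it was at -0.07 in WT, where the groups overlapped (adjusted p = 0.22), and fell by 0.67 in iEZR_CA. With spike-in scaling the WT value of the second day turned to 0.04, and the first-day fall in iEZR_CA was -0.23 (adjusted p = 0.17).

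*Acvr2b* (chromosome 9, 119402118 to 119434995, plus strand) was at 632, 642 and 580 normalised counts in WT ESCs, 899, 868 and 976 at T24, and 924, 922 and 984 at T48. The iEZR_CA libraries were at 431, 393 and 433, then 546, 549 and 533, then 862, 819 and 763. WT was the higher line at all 3 stages, with no overlap, and iEZR_CA at T24 was still below WT ESCs. The 2 highest groups, WT T48 and WT T24, overlapped. The line difference was -0.58 in ESCs (log2, SE 0.0613, adjusted p = 1.1e-12), -0.74 at T24 (SE 0.055, adjusted p = 3.0e-19) and -0.20 at T48 (SE 0.0511, adjusted p = 4.1e-04). With spike-in scaling the T48 difference was -0.16 (adjusted p = 0.36). *Acvr2b* rose by 0.54 in WT and by 0.38 in iEZR_CA on the first day. Over the second day it was at 0.06 in WT (adjusted p = 0.34) and rose by 0.59 in iEZR_CA.

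**Figure D1:**
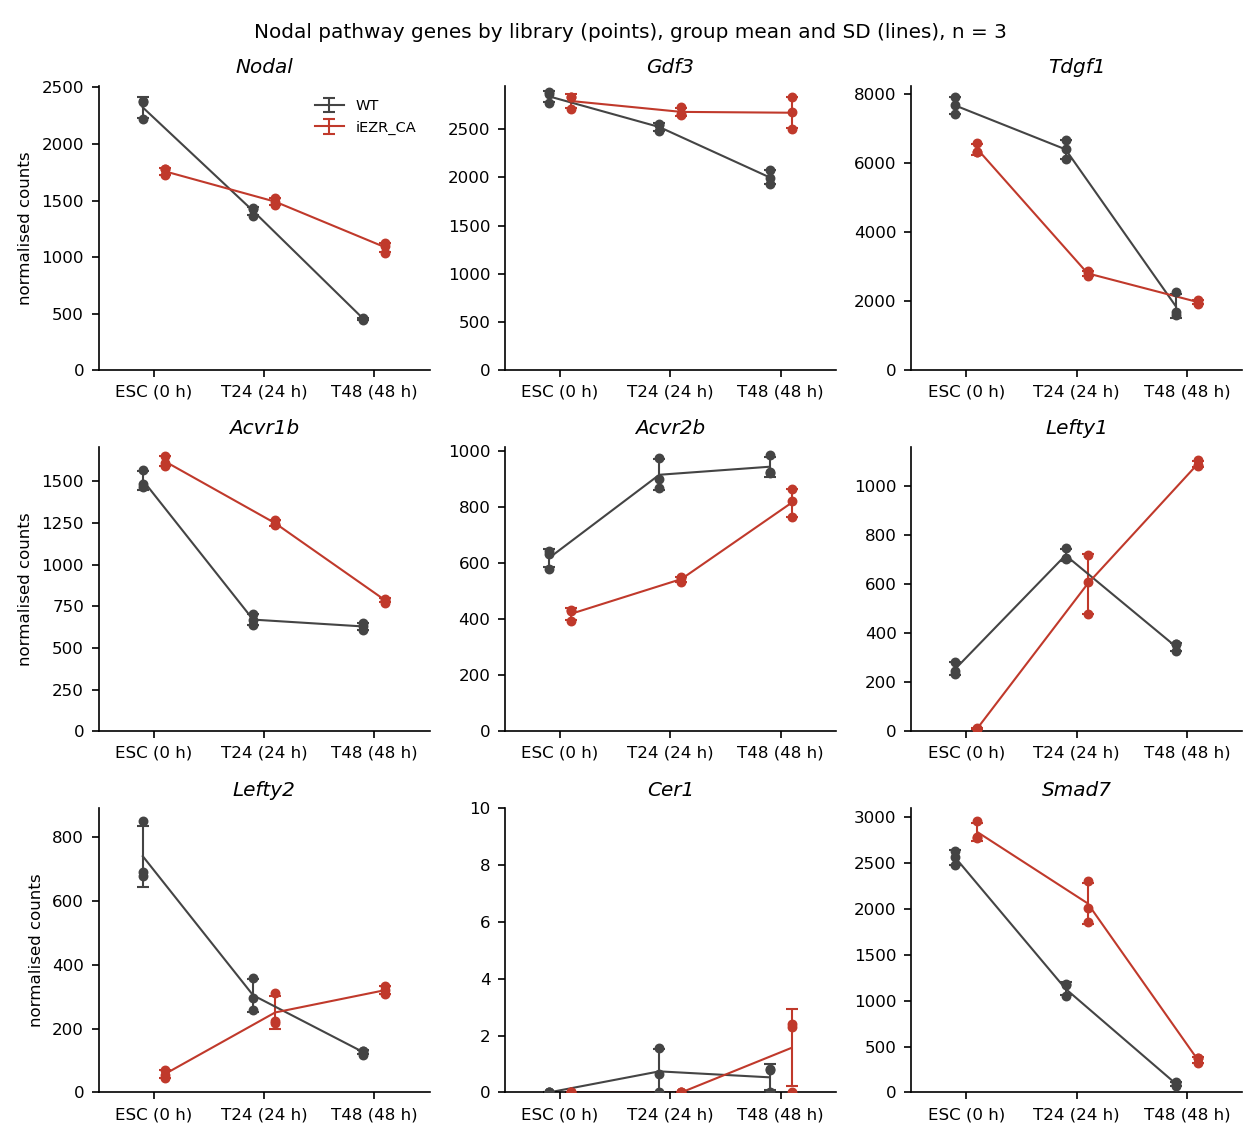
Normalised counts (vertical axis, linear, from 0) of the 9 genes at 3 stages (horizontal axis, hours in N2B27) in WT (dark) and iEZR_CA (red). Points are single libraries, and lines and bars are the mean and SD of 3. *Tdgf1* at T24 is at 6405 in WT and 2813 in iEZR_CA, *Lefty1* ends at 346 and 1091, and *Cer1*, drawn on an axis to 10, is at 0 in 12 libraries.

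Within a library the balance of the receptor pair can be read from counts per kilobase of exon. The ratio of *Acvr2b* to *Acvr1b* per kilobase was 0.462 ± 0.0223 (SD, n = 3) in WT ESCs, 1.54 ± 0.0636 at T24 and 1.69 ± 0.0321 at T48. In iEZR_CA it was 0.291 ± 0.0124, 0.489 ± 0.00754 and 1.17 ± 0.0762. WT libraries thus held more *Acvr2b* than *Acvr1b* RNA per kilobase by T24, and iEZR_CA libraries by T48. The iEZR_CA ratio was below the WT ratio in every library of each stage, and no test was made of it.

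*Lefty2* and *Lefty1* lie next to each other on the plus strand of chromosome 1 (180893108 to 180899103 and 180935022 to 180938400), 35.9 kb apart. *Lefty2* was at 851, 679 and 691 normalised counts in WT ESCs, 296, 359 and 259 at T24, and 129, 130 and 119 at T48. In iEZR_CA it was at 46.5, 56.1 and 70.0 in ESCs, 310, 218 and 223 at T24, and 334, 320 and 308 at T48. The course over time was thus turned around, with the highest group of all in WT ESCs and the lowest in iEZR_CA ESCs. The lines overlapped at T24, and they were apart at the other stages. In the order of group means, iEZR_CA T48, WT T24 and iEZR_CA T24 each overlapped the next. The line difference was -3.70 in ESCs (log2, SE 0.165, adjusted p = 2.7e-12), or 13-fold lower in iEZR_CA. It was -0.34 at T24 (SE 0.139, adjusted p = 0.047) and 1.37 at T48 (SE 0.157, adjusted p = 7.8e-07), or 2.58-fold higher in iEZR_CA. The T24 call was lost with only the groups compared in the fit (-0.34, adjusted p = 0.11) and with spike-in scaling (-0.23, adjusted p = 0.23). It was also lost without any 1 of 12, namely replicate 2 of iEZR_CA ESC, replicates 2 and 3 of iEZR_CA T24, replicate 3 of WT ESC, replicates 1 and 2 of WT T24 and all 6 at T48 (adjusted p from 0.058 to 0.2). Over the 18 omissions the T24 difference ran from -0.48 to -0.22, the latter without WT T24 replicate 2. Over the first day *Lefty2* fell by 1.27 in WT and rose by 2.10 in iEZR_CA. Over the second day it fell by 1.30 in WT and was 0.40 higher in iEZR_CA (adjusted p = 0.018), where the groups overlapped. That last call was lost without iEZR_CA T24 replicate 2 (0.30, adjusted p = 0.1) or 3 (0.34, adjusted p = 0.075) or iEZR_CA T48 replicate 1 (0.36, adjusted p = 0.068).

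*Lefty1* was at 284, 233 and 246 normalised counts in WT ESCs, 703, 746 and 705 at T24, and 355, 356 and 327 at T48. In iEZR_CA it was at 11.1, 14.2 and 11.2 in ESCs, on 10, 17 and 8 raw reads, then at 719, 477 and 608 at T24 and 1104, 1087 and 1080 at T48. In WT the gene thus peaked at T24, whereas in iEZR_CA it went from the lowest group to the highest. Only at T24 did the lines overlap, with replicates 2 and 3 of iEZR_CA below all WT libraries. These values chose the gene, and they are given without a test. The fitted line difference was -4.33 in ESCs (20.2-fold lower in iEZR_CA), -0.29 at T24 and 1.67 at T48 (3.18-fold higher). Without iEZR_CA T24 replicate 2 the T24 value was -0.12. The step over the first day was 1.5 in WT and 5.54 in iEZR_CA, and that over the second was -1.06 and 0.90. The other inhibitors tested, *Lefty2* and *Smad7*, had line differences at T48 of 1.37 and 1.82.

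Both *Lefty* genes were far below WT in iEZR_CA ESCs, whereas the median of the genes around them was close to 0. The 48 other tested genes within 2.5 Mb had a median line difference of -0.00257 in ESCs, 0.0369 at T24 and 0.0153 at T48 (log2). In ESCs 3 of these 48 differed by more than 1 on the log2 scale, and their values ran from -2.39 to 1.44. The *Lefty* transcripts share 281 of the 1571 stretches of 50 bases in *Lefty1*, and 73 of the 1521 of 100 bases. Reads from such stretches fit both genes and are by default not counted, so the ratio of the pair is uncertain to that extent. Per kilobase of exon, *Lefty1* was at 0.512 ± 0.0165 (SD, n = 3) of *Lefty2* in WT ESCs, 3.55 ± 0.483 at T24 and 4.08 ± 0.0129 at T48. In iEZR_CA the ratio was 0.323 ± 0.0746, 3.58 ± 0.414 and 5.06 ± 0.147. In both lines, then, *Lefty2* was the more abundant of the pair in ESCs and *Lefty1* after exit, and the line ratios overlapped at T24.

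**Figure D2:**
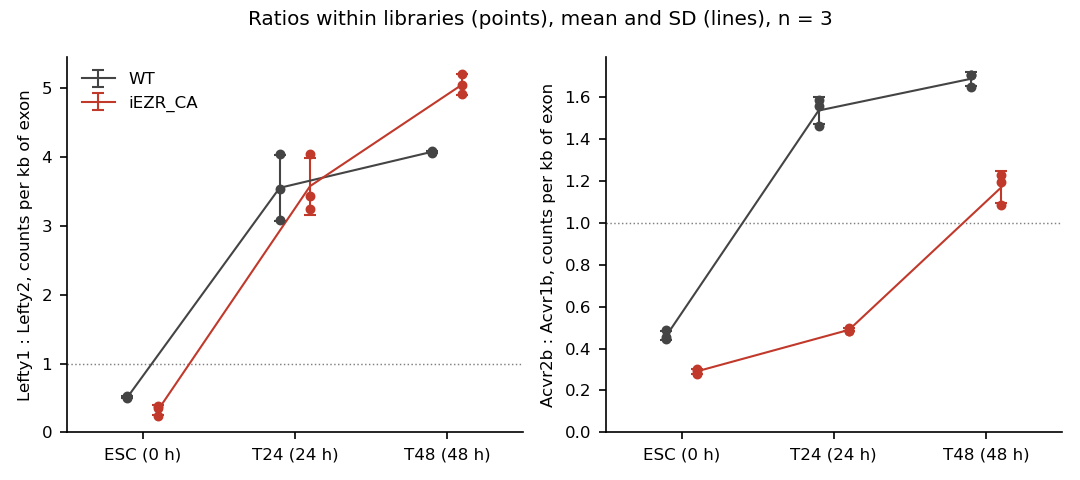
Ratios within libraries of counts per kilobase of exon (vertical axes, linear, from 0) at 3 stages (horizontal axis), for *Lefty1* over *Lefty2* (left) and *Acvr2b* over *Acvr1b* (right). Points are libraries, lines and bars the mean and SD of 3, and the dotted line is a ratio of 1. The *Lefty* ratio crosses 1 by T24 in both lines, and the receptor ratio crosses it by T24 in WT (1.54) and by T48 in iEZR_CA (1.17).

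*Cer1*, the third secreted inhibitor, was near 0 throughout. It had 9 reads in the 18 libraries together, with at most 3 in any of them. All libraries of WT ESC, iEZR_CA ESC and iEZR_CA T24 were at 0, which allows up to 3 reads in each by counting error. It did not pass the filter, and no fold change or test is given.

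*Smad7* (chromosome 18, 75367529 to 75395935, plus strand) encodes the intracellular inhibitor that recruits ubiquitin ligases to the receptors, and the pathway is known to induce it. It was at 2632, 2563 and 2477 normalised counts in WT ESCs, 1175, 1166 and 1045 at T24, and 115, 74.6 and 94.9 at T48. The iEZR_CA libraries were at 2953, 2774 and 2780, then 2304, 1860 and 2014, then 371, 318 and 373. The 6 groups did not overlap, and iEZR_CA was the higher line at each stage. The line difference was 0.14 in ESCs (log2, SE 0.0662, adjusted p = 0.084), 0.84 at T24 (SE 0.0744, adjusted p = 6.2e-08) and 1.82 at T48 (SE 0.151, adjusted p = 2.9e-08). At T48 this is 3.53-fold. The ESC difference passed under DESeq2 (adjusted p = 0.046), with only the 2 groups compared in the fit (4.1e-04), with no filter on low counts (0.013), at least 10 counts in every library (0.048) or no robust moderation (0.016), and without replicate 1 or 2 of iEZR_CA T24 or replicate 2 of WT T48 (0.14, 0.14 and 0.15, adjusted p = 0.0052, 0.015 and 0.048). Over the first day *Smad7* fell by 1.18 in WT and by 0.48 in iEZR_CA. Its second-day change was -3.51 in WT and -2.54 in iEZR_CA. It had the largest second-day fall of the 8 genes fitted, 11.4-fold in WT.

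Counted together without *Lefty1*, 7 genes were tested in each comparison, and their counts are set beside the share of all 18469 genes called. In ESCs 1 was higher in iEZR_CA and 4 were lower, where 54.5% of all genes were called, 26.4% higher and 28.1% lower. At T24 3 were higher and 3 lower, where 60.9% of all genes were called, 30.8% higher and 30.1% lower. At T48 5 were higher and 1 lower, where 61.1% were called, 31% higher and 30.1% lower. The higher genes at T48 were *Nodal*, *Gdf3*, *Acvr1b*, *Lefty2* and *Smad7*, and the lower one was *Acvr2b*. The median line difference of the 7 was -0.27 in ESCs, 0.09 at T24 and 0.43 at T48 (log2), next to -0.01, -0.0020 and 0 over all genes tested. In WT 1 rose and 6 fell on the first day (of all genes 65.4% were called, 31.8% up and 33.6% down), and 0 rose and 5 fell on the second (65.7%, 32.8% up and 32.9% down). By DESeq2 the WT second-day counts were likewise 0 and 5, and at an unadjusted p under 0.05 in edgeR they were 0 and 5. In iEZR_CA 2 rose and 4 fell on the first day (56%, 27.1% up and 28.9% down), and 2 rose and 4 fell on the second (59.6%, 29.6% up and 30% down). With so large a share of all genes called in each comparison, these counts do not set the group apart.

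**Figure D3:**
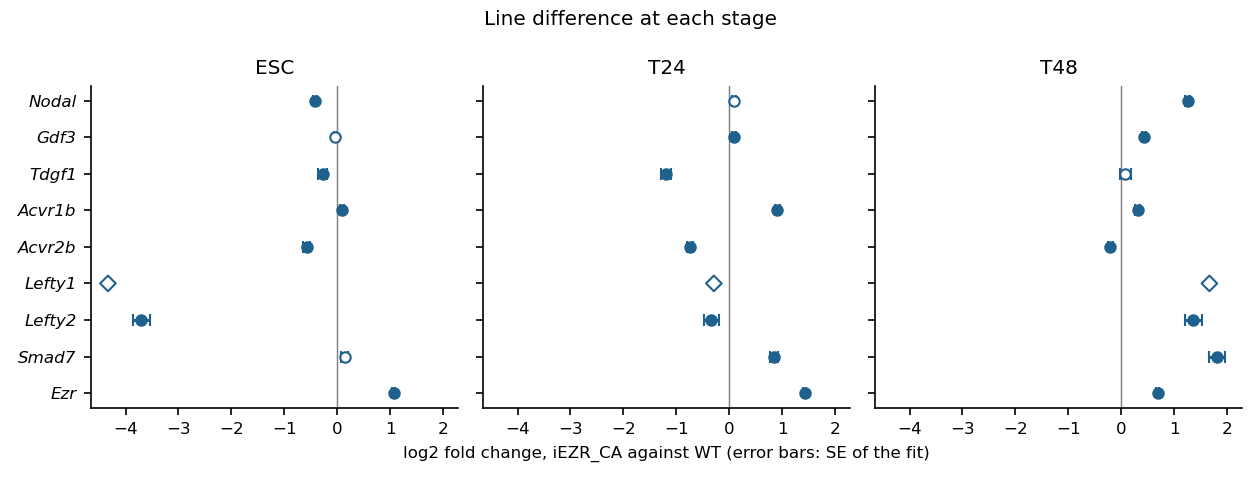
Fitted log2 fold change of iEZR_CA against WT (horizontal axes, same scale) in ESCs, at T24 and at T48 for 8 genes and *Ezr*. Filled points passed an adjusted p of 0.05, open points did not, bars are the SE of the fit, and *Lefty1* is an open diamond because it was not tested. *Lefty1* and *Lefty2* stand at -4.33 and -3.70 in ESCs and at 1.67 and 1.37 at T48.

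With scaling to the spike-in RNA, the median log2 change of all genes in the steps over time was between 0.104 and 0.144, where it was between -0.008 and 0.007 in the reported fit, and these genes are to be read relative to that shift. The share of higher genes among all called moved from 50.6% to 61.1% in the line comparison at T24, from 48.6% to 61.6% and from 48.4% to 68.9% over the first day in WT and iEZR_CA, and from 49.9% to 61.8% over the second day in WT. With that scaling the genes called in ESCs were 3 of the 7, *Nodal*, *Acvr2b* and *Lefty2*, each lower in iEZR_CA (*Acvr1b* and *Tdgf1* had adjusted p = 0.41 and 0.22), and 2 were higher and 2 lower at T24. On the first day 1 rose and 4 fell in WT and 2 rose and 2 fell in iEZR_CA, and over the second day in WT 4 fell.

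The difference between the lines in each step was tested as an interaction, the step in iEZR_CA less the step in WT. Over the first day it was positive for 5 of the 7 genes and negative for 1, where 38.3% of all genes were called, 21.5% positive and 16.9% negative. It was 0.50 for *Nodal* (SE 0.055, adjusted p = 9.6e-12), 0.81 for *Acvr1b* (SE 0.0608, adjusted p = 2.6e-18), 0.70 for *Smad7* (SE 0.0996, adjusted p = 3.6e-05) and 3.36 for *Lefty2* (SE 0.231, adjusted p = 2.7e-09). *Tdgf1* had the negative one, -0.92 (SE 0.122, adjusted p = 4.0e-05), and *Gdf3* was at 0.12 (adjusted p = 0.044). The *Gdf3* call was lost without any 1 of 8 libraries, replicate 1 of iEZR_CA ESC, replicates 1 and 3 of iEZR_CA T24, replicate 3 of iEZR_CA T48, and replicates 2 and 3 of WT ESC and of WT T24 (0.10 to 0.14 over the omissions). It was also lost under DESeq2 (adjusted p = 0.14), no filter on low counts (0.08), no robust moderation (0.058), RLE size factors (0.071), at least 10 counts in every library (0.056) and spike-in scaling (0.76). *Acvr2b* was at -0.17 (adjusted p = 0.11). Spike-in scaling moved the share of higher genes among all those called in this interaction from 56% to 68.5%, and 4 of the 7 were then positive and 1 negative.

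Over the second day 6 interactions were positive and 1 negative, where 46.2% of all genes were called, 25.3% positive and 20.9% negative. They were 1.17 for *Nodal* (SE 0.064, adjusted p = 3.0e-25), 1.27 for *Tdgf1* (SE 0.133, adjusted p = 3.0e-06), 1.70 for *Lefty2* (SE 0.211, adjusted p = 3.4e-06), 0.98 for *Smad7* (SE 0.174, adjusted p = 2.4e-04), 0.54 for *Acvr2b* (SE 0.0753, adjusted p = 9.4e-09) and 0.34 for *Gdf3* (SE 0.05, adjusted p = 3.0e-08). *Acvr1b* had the negative one, -0.60 (SE 0.0675, adjusted p = 1.5e-11). With spike-in scaling 5 were positive and 1 negative, and *Gdf3* was at 0.33 (adjusted p = 0.2). *Lefty1*, untested, was at 4.05 over the first day and 1.96 over the second. The comparisons of lines, the steps and the interactions share libraries, so their values are not independent of each other.

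The rest of the pathway was followed with a list of 39 genes, of which 33 were tested. *Acvr1c*, *Lhx1*, *Cfc1*, *Gdf1*, *Tgfb3* and *Inhba* did not pass the filter. *Gdf1* lies wholly within exons of *Cers1* and had no reads, so it could not be measured. In ESCs 10 of the 33 were higher in iEZR_CA and 13 lower, at T24 15 and 9, and at T48 19 and 4. These are 69.7%, 72.7% and 69.7% of those tested, against 54.5%, 60.9% and 61.1% of all genes.

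Among receptors, all 3 tested were higher in iEZR_CA in ESCs and at T24 and 1 was higher at T48. *Tgfbr2*, the type II receptor for TGF-β, was at 148 ± 17.2 (SD, n = 3) in WT ESCs and 355 ± 15.6 in iEZR_CA ESCs, a log2 difference of 1.27. At T24 it was at 17.2 ± 6.27 and 138 ± 9.77, a difference of 3.02 (adjusted p = 3.2e-24). By T48 the *Tgfbr2* difference was 0.49 (adjusted p = 0.11). Both proteases that cleave the NODAL precursor, *Furin* and *Pcsk6*, were lower in iEZR_CA in ESCs and higher at T24 and T48. Of the ligands, 3 of 4 tested were lower in ESCs, 1 was higher and 1 lower at T24, and 2 were higher at T48. *Inhbb*, an activin subunit, was at 305 ± 23.9 in WT and 661 ± 46.7 in iEZR_CA at T24 (log2 difference of 1.13), and at 5.44 ± 2.19 and 35.3 ± 11 at T48 (2.82, adjusted p = 1.7e-05). The WT level at T48 rests on 4 to 7 raw reads per library. In ESCs the *Inhbb* difference was -0.31 (adjusted p = 0.006), with libraries that overlapped. *Tgfb1*, another ligand of the family, was at 23.4 ± 3.85 and 89.5 ± 8.21 at T48 (1.92, adjusted p = 1.8e-15). Its ESC difference was -0.88 (adjusted p = 1.3e-10).

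Among the effectors, 3 of 6 were higher in ESCs and at T48, and at T24 2 were higher and 3 lower. *Smad3* was at 764 ± 20.8 in WT and 1598 ± 76.7 in iEZR_CA at T24 (log2 difference of 1.07, adjusted p = 4.9e-30). Its difference was 0.30 in ESCs (adjusted p = 2.0e-08) and -0.05 at T48 (adjusted p = 0.41). Among 7 negative regulators 1 was higher and 4 lower in ESCs, 2 and 3 at T24, and 5 and 2 at T48. *Skil*, which encodes the SMAD co-repressor SnoN, was at 6958 ± 175 in WT and 2747 ± 210 in iEZR_CA at T24 (-1.34). *Pmepa1*, which sequesters SMADs and is induced by the pathway, was at 51.4 ± 8.76 and 148 ± 16.2 at T48 (1.46). Its line difference was -0.45 in ESCs (adjusted p = 2.2e-10) and 0.88 at T24 (adjusted p = 2.2e-18). *Fst*, encoding the activin-binding follistatin, was at 611 ± 27.7 in WT and 105 ± 7.19 in iEZR_CA at T48 (-2.54, adjusted p = 1.9e-36). The *Fst* line difference was 0.26 in ESCs (adjusted p = 0.029) and -0.03 at T24 (adjusted p = 0.79).

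Of the 6 target genes tested, 1 was higher and 3 lower in ESCs, 3 and 1 at T24, and 4 were higher at T48. *Gsc*, a homeobox gene of the organizer, was at 365 ± 25.3 in WT ESCs and 556 ± 26.2 in iEZR_CA ESCs (0.60, adjusted p = 6.5e-10). Its first-day step was -6.4 in WT and -5.2 in iEZR_CA (log2). At T24 it was at 3.95 ± 2.82 and 15.1 ± 3.22 (1.85, adjusted p = 1.1e-04). That value rests on 1 to 7 raw reads per library in WT and 10 to 20 in iEZR_CA. The T48 difference was 0.59 (adjusted p = 0.41). In the interactions 13 of the 33 were positive and 5 negative over the first day, and 12 and 6 over the second, where 38.3% and 46.2% of all genes were called. The second-day total of 18 was 11 with spike-in scaling.

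**Figure D4:**
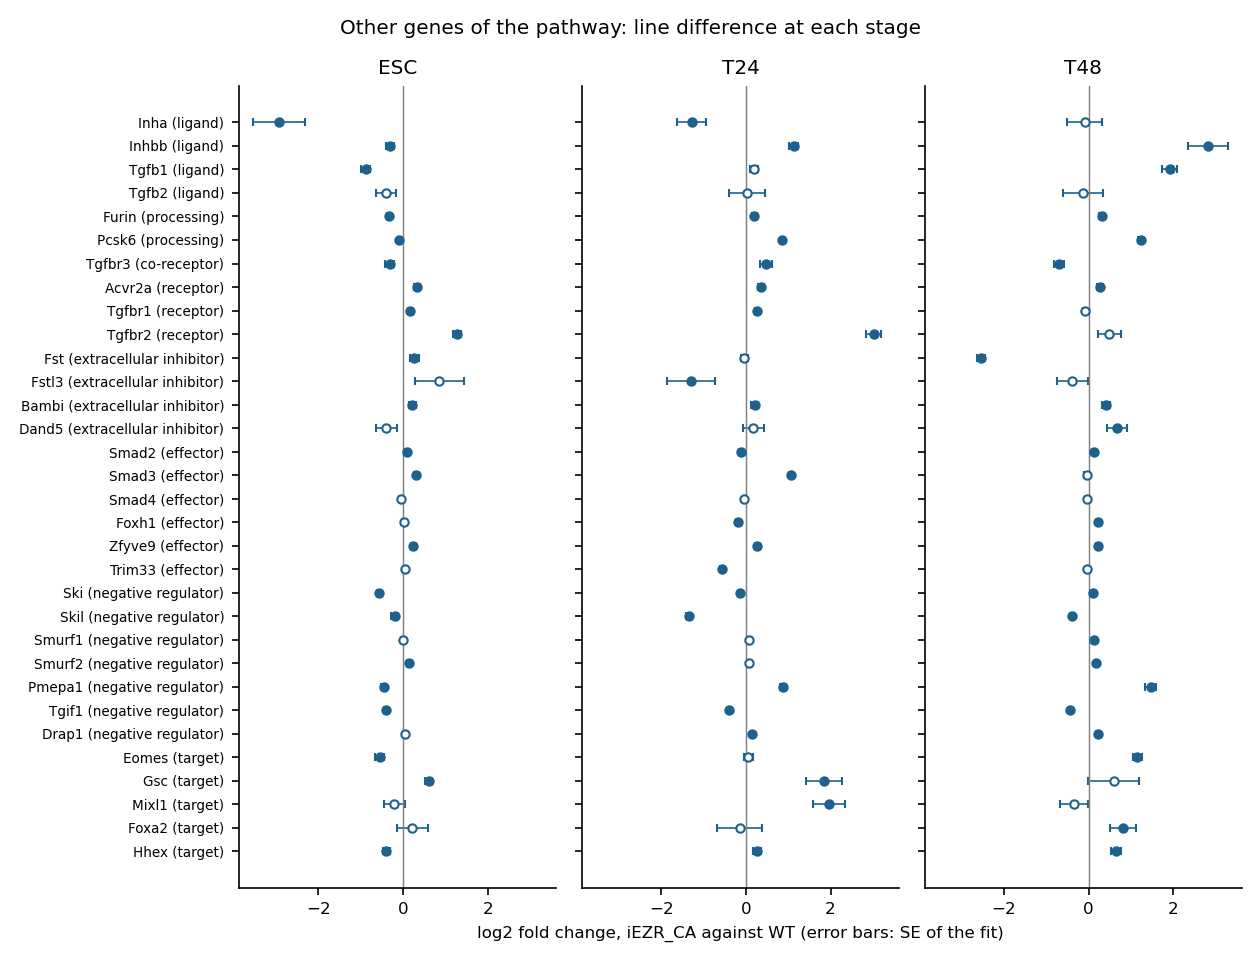
Fitted log2 fold change of iEZR_CA against WT (horizontal axes, same scale) in ESCs, at T24 and at T48 for 32 of the 33 other pathway genes tested, ordered by role. Filled points passed an adjusted p of 0.05, open points did not, and bars are the SE of the fit. The largest positive values are 3.02 for *Tgfbr2* at T24 and 2.82 for *Inhbb* at T48. The most negative are -2.92 for *Inha* in ESCs and -2.54 for *Fst* at T48. *Inha* had 1 to 2 raw reads per library in iEZR_CA ESCs. *Inhbb* had 4 to 7 raw reads per library in WT at T48.

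Markers of other cell types also differed between the lines. The summed level of 8 primitive and visceral endoderm markers was 230 to 261 normalised counts in WT ESCs and 737 to 798 in iEZR_CA ESCs, of which *Dab2* made up 45.2 ± 11.1 and 631 ± 19.0 (SD, n = 3). *Afp* was at 3 reads or fewer in both groups and *Sox7* in iEZR_CA. In ESCs *Gata4* was at 97.5 ± 5.65 in WT and 17.4 ± 2.01 in iEZR_CA, and *Sox7* at 7.97 ± 2.01 and 1.30 ± 1.15. Both were thus lower in iEZR_CA, while *Gata6* was higher (32.4 ± 3.06 and 61.5 ± 6.15). At T24 the sums were 151 to 183 and 402 to 444, and at T48 358 to 394 and 233 to 267. *Dab2* was at 33.5 ± 8.47 and 303 ± 24.5 at T24, and at 189 ± 17.5 and 157 ± 23.3 at T48. The 4 trophoblast markers summed to 47.2 to 48.5 in WT ESCs and 166 to 168 in iEZR_CA ESCs, with *Elf5* and *Hand1* near 0 in WT and *Hand1* in iEZR_CA. At T24 they summed to 42.4 to 51.5 and 226 to 266, and at T48 to 44.1 to 58.9 and 197 to 229. Most of this line difference was *Gata3*, at 28.1 ± 1.78 in WT and 138 ± 2.58 in iEZR_CA in ESCs. It was at 40.3 ± 2.65 and 238 ± 20.8 at T24, and at 16.2 ± 2.66 and 189 ± 14.9 at T48. *Cdx2* was at 17.4 ± 3.04 and 19.3 ± 4.38 in ESCs, where *Elf5* was at 2.11 ± 0.526 and 7.16 ± 1.47. At T48 *Cdx2* was at 17.0 ± 5.26 and 8.11 ± 1.29, and *Hand1* at 18.9 ± 2.53 and 15.6 ± 0.254. The 5 mesendoderm markers, 3 of them also among the pathway targets, summed to 548 to 604 in WT ESCs and 666 to 722 in iEZR_CA ESCs. *Mesp1* was near 0 in iEZR_CA and at 1.65 ± 1.97 in WT. In ESCs *Gsc* was higher in iEZR_CA (365 ± 25.3 and 556 ± 26.2). *Eomes* (158 ± 0.595 and 108 ± 7.11) and *Evx1* (28.1 ± 7.48 and 11.05 ± 2.33) were lower there, and *Mixl1* was at 29.3 ± 1.91 and 25.5 ± 0.379. At T24 the 5 markers summed to 133 to 148 and 170 to 201, and at T48 to 123 to 134 and 240 to 275. At T48 *Eomes* was at 107 ± 2.58 and 237 ± 18.4, and *Mixl1* at 16.1 ± 5.91 and 11.8 ± 3.62. The 3 neuroectoderm markers summed to 219 to 236 in WT ESCs and 131 to 161 in iEZR_CA ESCs, to 638 to 725 and 414 to 457 at T24, and to 542 to 689 and 435 to 453 at T48. The ES cell markers summed to medians of 90831 and 79598 in ESCs, 48205 and 60834 at T24, and 17309 and 23753 at T48. *Pou5f1* was lower in iEZR_CA at T24 (18541 ± 375 in WT and 13280 ± 147) and at T48 (13126 ± 583 and 10869 ± 85.1). The means of *Sox2*, *Nanog*, *Zfp42* and *Esrrb* were higher in iEZR_CA at T24 and T48, with *Sox2* libraries that overlapped at T24. The part of these cell types in the differences of the Nodal pathway genes was not tested.

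The genes whose levels over the 18 libraries were most like those of *Nodal*, by Pearson's r of log2(normalised count + 1) among 12800 genes, were *Mreg* (0.994), *Rnf185* (0.991), *Sp2* (0.991) and *Ddc* (0.991). For *Lefty1* the first 3 were *Pitpnm2* (0.973), *Gli1* (0.962) and *Gprasp1* (0.956). The libraries form 6 groups that share lines and stages, so these values describe a like order of groups.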

How the data were processed

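Polyadenylated RNA from mouse ESCs was sequenced in 18 libraries, 3 per group, which the study describes as independent biological replicates. Per the labels and the study's methods, the authors trimmed reads with Trim Galore (0.6.5), aligned them to GRCm38/mm10 with GSNAP (2015-09-29) and deposited raw counts per gene from HTSeq. Use of strand was not given in the sources used here. Reads outside genes (21.3% to 24.3% of all rows' counts) and 92 spike-in sequences were left out of library sizes.

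From these counts, 18469 genes kept by filterByExpr were fitted with edgeR 4.0.16 (R 4.3.3; TMM, robust quasi-likelihood, a term for each of 6 groups, 12 residual degrees of freedom), with Benjamini-Hochberg adjustment over all of them. Levels were divided by DESeq2 (1.42.0) size factors, and by exon length in kilobases (GENCODE M21) where genes are compared. Common variation between replicates was 2.98%. Chi-square per degree of freedom between pairs of replicates was 1.61 to 3.59, where counting noise alone gives about 1. The adjusted p values measure differences against this small spread between libraries of the same line and stage. The code was tested on simulated data.

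The genes and lists were chosen with earlier results of these data known. All 9 genes are named. Of the 39 other pathway genes, those named were the up to 4 largest rises and falls per line comparison with a log2 change of at least 1 and a mean count of at least 50. Named apart from this rule were *Furin* and *Pcsk6*, the 2 genes of 1 role, *Inha* in a caption, and *Tdgf1-ps1*. Alternatives were DESeq2, other filters and size factors, spike-in scaling, no robust moderation, fitting only the groups compared, subtraction of the chromosome's median line difference, and leaving out each library. Items that these rules would name are not reported here.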

Additional observations from a re-analysis of the deposited data

Results flagged for a closer look

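The following differences between the lines in a step over time passed the test of the difference itself (edgeR's quasi-likelihood test of the interaction, adjusted p under 0.05 over all genes), each on the log2 scale as the step in iEZR_CA less that in WT. Over the first day they were 0.50 for *Nodal*, 0.12 for *Gdf3*, -0.92 for *Tdgf1*, 0.81 for *Acvr1b*, 3.36 for *Lefty2* and 0.70 for *Smad7*. Over the second day they were 1.17 for *Nodal*, 0.34 for *Gdf3*, 1.27 for *Tdgf1*, -0.60 for *Acvr1b*, 0.54 for *Acvr2b*, 1.70 for *Lefty2* and 0.98 for *Smad7*. *Tdgf1* and *Acvr1b* changed sign between the days. The first-day *Gdf3* difference did not pass under 6 of the other settings tried nor without any 1 of 8 libraries.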

How the results depend on the processing

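Of the counts of called genes, 224 of 225 for the Nodal genes and 223 of 225 for the other pathway genes stayed within 1.5 times of the reported value. The exceptions were under spike-in scaling: 3 in place of 5 of the Nodal genes and 11 in place of 23 other pathway genes in the line comparison in ESCs, and 11 in place of 18 other pathway genes in the second-day interaction. Leaving out libraries moved none of these counts past that limit. Of 1610 recomputed log2 differences of genes other than *Lefty1*, 1525 kept their direction and side of the threshold, 52 lost and 20 gained a call, 4 values moved by more than the spread and 9 changed sign. Values less the chromosome's median were not tested, and they are among the 1525 where they kept their sign and moved by less than the spread. No value that changed sign had been called. They were, under spike-in scaling, *Gdf3* in ESCs (0.025), *Gdf3* in iEZR_CA over the first day (0.087) and the second (0.12), and *Acvr1b* in WT over the second day (0.040). *Gdf3* in iEZR_CA over the second day also changed with only the groups compared (0.0015), at least 10 counts in every library (0.0077), and without iEZR_CA T24 replicate 3 or T48 replicate 1 (over all omissions -0.056 to 0.037), and *Tdgf1* between the lines at T48 did without WT T48 replicate 3 (over all omissions -0.043 to 0.26). The cause was not tested.

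Less its chromosome's median, the *Gdf3* line difference was 0.03 at T24 in place of 0.09, and -0.07 in ESCs in place of -0.03. For *Nodal* the line difference at T24 was then 0.13 in place of 0.09, and the second-day interaction 1.13 in place of 1.17. *Lefty1* kept its signs in all 221 values, of which 7 moved by more than 1 SD. These are refits of the values that chose the gene, so the kept signs are a description and no test. *Cer1* gave no values because it failed the filter. No paired analysis was possible because the sample titles are positions on a plate, with no number that links libraries across groups. *Lefty1* in iEZR_CA ESCs rests on 8 to 17 reads per library, which limits the precision of its fold there.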
